A study of Mus musculus with 24 samples.

Results

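The Hedgehog pathway was followed through 8 genes, chosen by name as its ligand, its receptors, its signal transducer and its transcription factors: Shh, Ptch1, Hhip, Smo, Sufu, Gli1, Gli2 and Gli3. Each symbol matched 1 Ensembl identifier among the 49671 genes counted, and all 8 were among the 19691 genes tested. Their levels were measured by RNA-seq in 24 mouse libraries, 4 in each of 6 groups. Neural stem cells (NSCs) were grown from the embryonic stem cell line GSC-5003 with FGF and EGF, at passages 50 to 60; this line is of the C57BL/6N substrain. AGES, the astrocytes made from these embryonic stem cells, were the same NSCs exposed to BMP4 at 20 ng/ml for 3 to 5 days. They were also moved from gelatin to poly-ornithine and laminin, in medium for which the paper lists no FGF or EGF. Effects of BMP4, coating and growth factors therefore cannot be told apart. Primary astrocytes came from C57BL/6J mice of both sexes and were captured on magnetic beads against the surface antigen ACSA-2 (the product of Atp1b2). Neonatal astrocytes were taken at 4 to 8 days of age and adult astrocytes at 100 to 140 days. Cells were either snap-frozen at once (neoAC direct and AdAC direct) or cultured for 7 to 10 days in AstroMACS medium (neoAC CellC and AdAC CellC). NSC and AGES replicates were cultures of 1 cell line from different passages, and each primary replicate was 1 isolation from the pooled brains of 2 mice. Adult tissue was dissociated with another kit than neonatal tissue, with removal of debris and red blood cells. The paper names removal of the meninges for neonatal tissue only. For direct adult isolation it names removal of the olfactory bulb and cerebellum, and does not say outright whether this held for adult cultures. Age, dissociation and dissection therefore cannot be told apart, and dissection may also differ between adult direct and cultured cells. The substrain likewise cannot be told apart from the origin of the cells where NSCs or AGES are compared with primary astrocytes.

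In the canonical pathway, Sonic hedgehog (Shh) binds the membrane protein Patched1 (Ptch1) and ends the inhibition that Ptch1 exerts on Smoothened (Smo) at the primary cilium. Active Smo releases the Gli transcription factors from Suppressor of fused (Sufu): Gli2 acts mainly as an activator, Gli3 is largely processed to a repressor, and Gli1 is an activator whose own transcription is a readout of the pathway. Ptch1 and the ligand-binding decoy Hhip are likewise induced by Gli factors and restrain the signal. In the adult brain, neurons are a source of Shh, and Gli1 marks subsets of astrocytes that receive it.

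Library totals were 27904126 to 37997368 counts, with a median of 32239904, and 3 counts corresponded to 0.0786 to 0.117 CPM (counts scaled to library size by TMM); this floor covers counting error only. Replicates of a group correlated with r between 0.985 and 0.994 over the tested genes (log2 CPM), and no libraries were identical. The summed level of 8 astrocyte markers was 13696 to 14291 CPM in AdAC direct but 903 to 1371 CPM in AdAC CellC, below the 1679.6 to 2068 CPM of NSCs, so the labelled cell type was only weakly borne out by these markers in the adult cultures, although none of them was at 0. It was 19611 to 22823 CPM in neoAC direct, 7164 to 8369.8 CPM in neoAC CellC and 51757 to 56661 CPM in AGES, where Gfap made up most of it. Markers of oligodendrocytes summed to 25603 to 28424 CPM in AdAC direct, more than its astrocyte markers, to 4092 to 10432 CPM in AdAC CellC and to at most 394 CPM in every other group. One library of neoAC direct, replicate 2, stood apart with 239 CPM of endothelial markers, against 57.8 to 93.6 CPM in the other 3. These are bulk samples, in which fewer cells of a type and less RNA per cell cannot be told apart.

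Shh was abundant in the cultured adult astrocytes, present at a lower level in the cultured neonatal astrocytes, and close to the counting floor in all other groups. In AdAC CellC its level was 124, 103, 81.9 and 94.9 CPM and in neoAC CellC 9.05, 5.71, 1.83 and 7.26 CPM (means ± SD 101 ± 17.7 CPM and 5.96 ± 3.07 CPM, n = 4). The directly isolated cells held 3, 3, 1 and 6 counts in AdAC direct and 1, 3, 3 and 4 counts in neoAC direct. NSCs held 1, 4, 1 and 4 counts and AGES 1, 0, 5 and 1 counts. Each cultured primary library thus lay above every library of the 4 other groups, and the 2 cultured groups did not overlap, AdAC CellC being higher by 4.09 ± 0.29 (log2, SE; adjusted p = 3.37e-11, edgeR quasi-likelihood test). Among the 4 low groups no neighbours in the order of levels differed by more than the standard error of the difference. Exons of Shh (chr5:28456815-28467256, GRCm38, minus strand) overlap those of Gm26894 and 9530036O11Rik on the other strand, whose highest level in any library was 2.82 CPM and 0.745 CPM.

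Ptch1, the Shh receptor, was highest in the directly isolated cells. It was 408, 411, 400.0 and 400.0 CPM in neoAC direct and 365, 394, 352 and 349 CPM in AdAC direct, against 107, 92.3, 79.7 and 109 CPM in neoAC CellC and 80.3, 89.1, 93.5 and 104 CPM in AdAC CellC. NSCs lay at 88.3, 86.8, 103 and 99.6 CPM and AGES, between the direct and the cultured groups, at 147, 163, 159 and 174 CPM. Every directly isolated library was far above every cultured primary library. AGES differed from AdAC direct above and from neoAC CellC below without overlap (adjusted p = 9.96e-12 and 8.27e-08), whereas neoAC CellC, NSC and AdAC CellC did not differ in the test (95% intervals of the log2 differences of neighbours -0.22 to 0.14 and -0.14 to 0.22). NSC was below neoAC CellC with library-size scaling (-0.26, adjusted p = 0.0125) and when each library had to hold at least 10 counts (-0.35, 0.00109). The neonatal and adult direct groups did not overlap; their difference missed the threshold (adjusted p = 0.143) but passed in a fit of these 2 groups alone (adjusted p = 0.0254).

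Hhip, the secreted and membrane-bound decoy for Hedgehog ligands, differed widely between groups. AdAC direct held 68.3, 72.3, 70.5 and 87.8 CPM and neoAC direct 17.8, 16.5, 19.6 and 23.0 CPM. In culture it was 5.62, 6.82, 6.67 and 5.99 CPM in AdAC CellC and 1.34, 1.62, 0.998 and 1.83 CPM in neoAC CellC. NSCs varied from library to library, with 22.3, 8.99, 14.2 and 28.3 CPM, and AGES held only 3, 5, 6 and 12 counts. AdAC direct was thus the highest group and AGES the lowest, and the order AdAC direct, neoAC direct, NSC, AdAC CellC, neoAC CellC, AGES had 1 pair of neighbours, neoAC direct and NSC, that did not differ in the test (95% interval -0.50 to 0.38 for NSC minus neoAC direct, log2).

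Ptch1 and Hhip are both known Gli targets, and both were lower in culture than in directly isolated cells, so the 250 bases before one annotated RefSeq start of each (GRCm38.p6, in the direction of transcription) are shown, with CG pairs in capitals. The Ptch1 stretch is chr13:63565736-63565985 and the Hhip stretch chr8:80058009-80058258, both on the minus strand.

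Ptch1: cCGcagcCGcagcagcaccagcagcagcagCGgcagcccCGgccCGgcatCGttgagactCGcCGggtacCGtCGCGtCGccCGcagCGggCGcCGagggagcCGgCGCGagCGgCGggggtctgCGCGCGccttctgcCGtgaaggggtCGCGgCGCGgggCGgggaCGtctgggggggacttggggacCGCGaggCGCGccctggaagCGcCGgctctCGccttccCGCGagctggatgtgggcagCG

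Hhip: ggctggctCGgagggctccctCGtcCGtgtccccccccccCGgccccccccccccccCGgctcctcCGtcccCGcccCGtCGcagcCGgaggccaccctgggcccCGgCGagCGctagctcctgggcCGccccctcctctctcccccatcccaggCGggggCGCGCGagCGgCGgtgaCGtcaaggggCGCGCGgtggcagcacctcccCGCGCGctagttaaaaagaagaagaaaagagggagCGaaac

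The Ptch1 stretch holds 41 CG pairs at 78.4% G and C and the Hhip stretch 28 at 76%, where the median over 32851 stretches of this length is 6 CG pairs and 52.4%. At least as many CG pairs as at Ptch1 occurred in 1.09% of all stretches, and as many as at Hhip in 7.61%. The Gli motif GACCACCCA, searched on both strands without mismatch in the 300 bases from 250 before to 50 after the start, was in neither, nor in those of Smo, Sufu, Gli2 and Gli3. It was in 0.253% of all such windows, and in none of the 42 listed pathway genes with a window. Gli1 and Shh had no window in the table used.

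Smo, the transducer, was present in all groups. AGES held 279, 283, 246 and 229.6 CPM and NSCs 234, 232, 224 and 223 CPM. Neonatal astrocytes held 194, 168, 178 and 185 CPM in culture and 183, 185, 186 and 147 CPM when frozen directly, and adult astrocytes 118, 121, 123 and 134 CPM in culture. AdAC direct was lowest, at 75.6, 78.1, 77.6 and 72.8 CPM, and its libraries lay below all others. Neighbours in this order passed the test except neoAC CellC and neoAC direct. The call between NSC and neoAC CellC was lost with library-size scaling (adjusted p = 0.206), with at least 10 counts in every library (0.806) and in a blocked fit of these 2 groups (0.0503). Library 4 of neoAC direct was lower than the other 3, which lay within 183 to 186 CPM.

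Sufu, the cytoplasmic inhibitor of the Gli factors, was highest in NSCs (66.6, 59.4, 81.5 and 68.8 CPM) and neoAC direct (62.2, 63.8, 67.0 and 55.2 CPM), which overlapped. AGES followed with 54.9, 52.6, 47.4 and 48.4 CPM. The 3 other primary groups were lower, with 38.8, 37.7, 42.9 and 41.1 CPM in AdAC CellC, 34.3, 38.2, 36.0 and 33.1 CPM in AdAC direct and 35.6, 28.2, 31.6 and 28.9 CPM in neoAC CellC. AdAC direct overlapped with each of the cultured groups and did not differ from either in the test (adjusted p = 0.0767 and 0.0667).

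**Figure D1:**
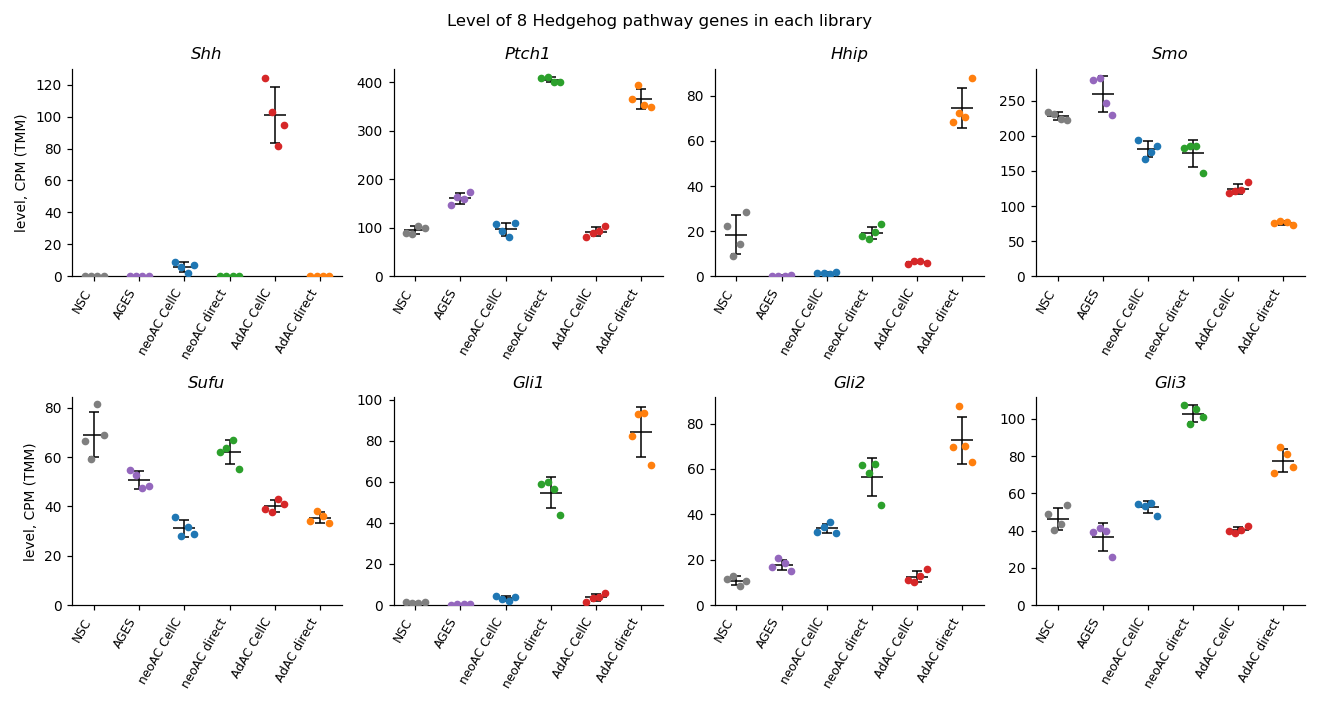
Level of each of the 8 genes (y axis, TMM-scaled CPM, linear from 0 and scaled per gene) in the 6 groups (x axis); points are single libraries, the bar and whiskers the mean ± SD of 4. Shh is high in the 2 cultured primary groups, mean 101 and 5.96 CPM, while Gli1, Ptch1 and Hhip are high in AdAC direct, mean 84.2, 365 and 74.7 CPM.

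Gli1, the transcriptional readout, was high only in the directly isolated astrocytes. It was 82.3, 93.1, 93.6 and 68.0 CPM in AdAC direct and 59.0, 59.8, 56.5 and 43.7 CPM in neoAC direct. Cultured primary astrocytes held 1.72, 3.50, 4.17 and 5.68 CPM in AdAC CellC and 4.40, 2.96, 1.91 and 3.88 CPM in neoAC CellC. It was low in NSCs (1.43, 0.789, 0.796 and 1.5 CPM) and lower still in AGES (0.273, 0.406, 0.352 and 0.592 CPM, from 7, 14, 11 and 18 counts). The 2 cultured primary groups overlapped and did not differ in the test (adjusted p = 0.524), and all other neighbours in this order were separate. Library 4 was the lowest of its group in both direct groups. Exons of Gli1 (chr10:127329882-127341974, minus strand) overlap 62 bases of Arhgap9, which reached at most 0.641 CPM in any library.

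Gli2, the main activator, was 69.5, 87.6, 70.3 and 62.9 CPM in AdAC direct and 61.6, 58.1, 62.0 and 44.0 CPM in neoAC direct. The cultured neonatal cells held an intermediate level of 32.3, 34.4, 36.5 and 32.0 CPM, above the 10.9, 10.4, 12.8 and 15.9 CPM of AdAC CellC. AGES held 16.7, 20.6, 18.3 and 15.2 CPM and NSCs 11.5, 12.8, 8.47 and 10.4 CPM. AdAC CellC overlapped with both AGES and NSCs, and NSCs did not differ from it in the test (adjusted p = 0.191), although they did with library-size scaling (0.0273) and when each library had to hold at least 10 counts (0.0127).

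Gli3, the source of the repressor, had the narrowest range of the 3 factors. It was 107, 97.1, 105 and 101 CPM in neoAC direct and 70.8, 84.7, 81.0 and 74.1 CPM in AdAC direct, which did not overlap. The remaining groups lay at 52.6 ± 3.33 CPM (neoAC CellC), 46.5 ± 5.90 CPM (NSC), 40.4 ± 1.64 CPM (AdAC CellC) and 36.7 ± 7.39 CPM (AGES), and no neighbours among them passed the test. NSC and neoAC CellC did pass under 6 alternatives, among them DESeq2 (adjusted p = 0.00559), library-size scaling (0.00261) and a fit of these 2 groups alone (0.0121). The AGES mean included library 4 at 25.6 CPM, where the other 3 held 39.4 to 41.5 CPM. Gm6556, which lies on the opposite strand of Gli3, was at 6.01 CPM in neoAC direct and 3.64 CPM in AdAC direct, its 2 highest groups.

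Per kilobase of exon, the make-up of the Gli factors differed between groups. In AdAC direct the Gli1 level per kb was 2.08 ± 0.219 times that of Gli3 (mean of 4 ratios ± SD) and in neoAC direct 1.02 ± 0.146 times. The ratio was 0.178 ± 0.0720 in AdAC CellC, 0.121 ± 0.0430 in neoAC CellC, 0.0458 ± 0.0109 in NSCs and 0.0233 ± 0.0142 in AGES. No library of a direct group overlapped with any cultured library in this ratio, the highest cultured value being 0.255. Gli2 exceeded Gli3 per kb only in AdAC direct (ratio 1.30 ± 0.125), and was 0.898 ± 0.0488 of it in neoAC CellC but 0.430 ± 0.0683 in AdAC CellC. Ptch1 per kb was 1.90 ± 0.0817 times Smo in AdAC direct, 0.924 ± 0.105 times in neoAC direct and between 0.164 and 0.292 times, as group means, in the 4 cultured groups.

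**Figure D2:**
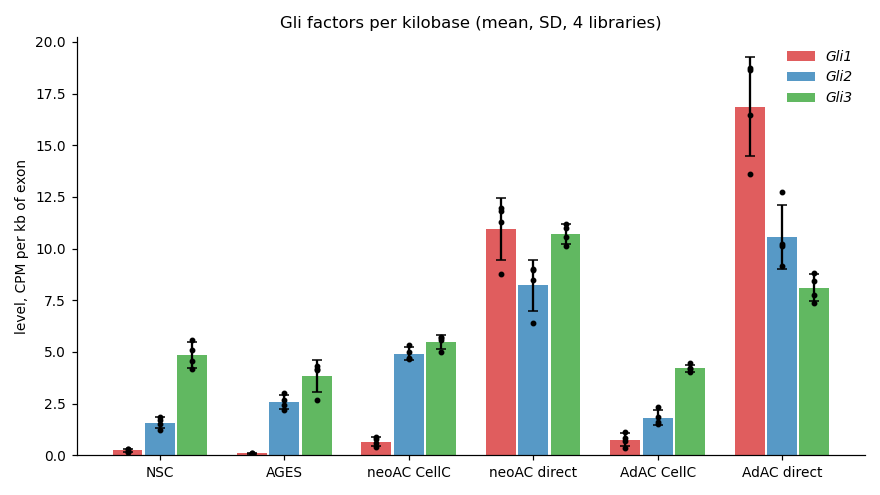
Level of Gli1, Gli2 and Gli3 per kilobase of exon (y axis, CPM per kb, from 0) in the 6 groups (x axis); bars are means, whiskers the SD and points the 4 libraries. Gli1 is the tallest bar in AdAC direct, at 16.9 CPM per kb, and the shortest in every cultured group, at 0.0813 to 0.754 CPM per kb.

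The first comparison asked how the culture of adult astrocytes changed the pathway. Of the 8 Hedgehog genes, 7 passed an adjusted p of 0.05 between AdAC CellC and AdAC direct (edgeR quasi-likelihood test, Benjamini-Hochberg over all genes tested), 2 higher and 5 lower, where 78.0% of all genes tested were called. The share called was therefore close to the background, and the size and direction of the changes are what the values show. Shh was higher in culture by 9.92 ± 0.46 (log2 fold change ± SE; adjusted p = 3.83e-15). From the summed counts, 13715 in culture against 13 in direct isolates, the ratio was 1000.2 with a 95% interval of 585 to 1879, which covers counting error only. Smo was 1.63-fold higher (adjusted p = 1.17e-08).

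The readouts of the pathway were lower. Gli1 was 22.3-fold lower in culture (log2 fold change -4.48 ± 0.26, adjusted p = 2.00e-13) and Hhip 11.9-fold lower (-3.57 ± 0.25, adjusted p = 3.05e-12). Gli2 was 5.81-fold lower (-2.54 ± 0.15), Ptch1 3.98-fold (-1.99 ± 0.09) and Gli3 1.92-fold (-0.94 ± 0.11), none with any overlap between the 4 libraries of each group. Sufu missed the threshold with 0.18 ± 0.09 (adjusted p = 0.0767, 95% interval from just below 0 to 0.36), and passed it in a fit of these 2 groups alone (adjusted p = 0.0170). The median log2 fold change was -1.47 over the 8 genes and 0.00 over all genes tested.

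Other cell-type markers moved with the same contrast. Oligodendrocyte and astrocyte markers were lower in AdAC CellC, as given above, and so were ependymal markers (221 to 311 CPM against 1156 to 1326 CPM). Higher there were markers of proliferation (622 to 768 CPM against 8.87 to 11.3 CPM), neural stem cells (5475 to 6585 CPM against 621 to 638 CPM) and neurons (51.5 to 79.9 CPM against 12.9 to 15.8 CPM). The 8 epithelial markers, a list added after the Shh levels were seen, summed to 163, 146, 356 and 164 CPM in AdAC CellC against 28.5 to 31.1 CPM in AdAC direct. The highest epithelial sum was in library 3, which had the lowest Shh of its group. None of the 8 was at 0 in all libraries of AdAC direct, and 2 of them had no more than 3 counts in any of these libraries. Markers of choroid plexus, added likewise, summed to 434, 419, 278 and 261 CPM in AdAC CellC and 102 to 301 CPM in AdAC direct. The highest of these sums in AdAC CellC was in library 1, which had the highest Shh of its group. The order of 4 libraries gives no test for either list. Mesenchymal markers summed to 747 to 1082 CPM in AdAC CellC and 164 to 209.5 CPM in AdAC direct. The part of all these markers in the change of the Hedgehog genes was not tested.

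**Figure D3:**
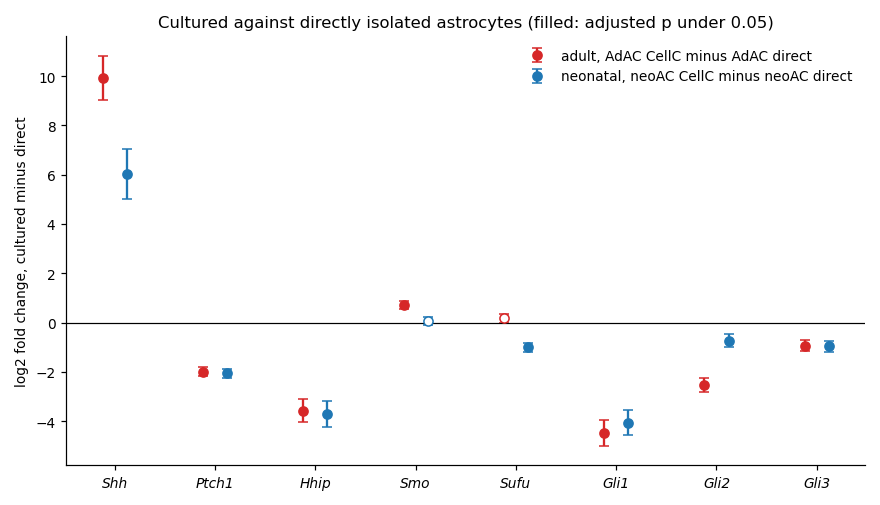
Log2 fold change of each gene (y axis) in cultured against directly isolated adult (red) and neonatal (blue) astrocytes; points are estimates from edgeR's fit, whiskers 95% intervals, and open points did not pass the test. Shh lies at 9.92 and 6.03, and Gli1, Hhip, Ptch1, Gli2 and Gli3 lie below 0 at both ages.

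The same question for neonatal astrocytes gave a like picture for most genes. Again 7 of 8 passed, 1 higher and 6 lower, beside 65.7% of all genes. Shh rose by 6.03 ± 0.52 (log2 fold change, adjusted p = 5.03e-10), from 11 to 836 summed counts, a ratio of 67.5 (37.5 to 136, counting error only). Gli1 fell 16.7-fold (-4.06 ± 0.26, adjusted p = 2.49e-12), Hhip 13.2-fold (-3.72 ± 0.27) and Ptch1 4.18-fold (-2.06 ± 0.09). Gli3 fell by 0.97 and Gli2 by 0.74 on the log2 scale. Sufu was lower without overlap (log2 fold change -1.0 ± 0.09, adjusted p = 7.04e-10), and Smo did not pass (0.05 ± 0.08, 95% interval -0.10 to 0.20). Epithelial markers summed to 5.77 to 12.8 CPM in neoAC CellC and 5.46 to 7.09 CPM in neoAC direct, and ependymal markers to 1337 to 1698 CPM and 132 to 194 CPM. In the same order, endothelial markers summed to 3.66 to 5.95 CPM and 57.8 to 239 CPM, and proliferation markers to 639 to 842 CPM and 235 to 389.8 CPM. Neural stem cell markers summed to 4477 to 5687 CPM and 6331 to 8162 CPM, and mesenchymal markers to 302 to 479 CPM and 218 to 313 CPM. Astrocyte markers were lower in culture, as given above. The part of these markers was not tested. With library-size scaling in place of TMM, which moved the median of all genes by 0.23, Smo passed as well (0.28, adjusted p = 0.00242). Without neoAC direct replicate 2, the library with more endothelial markers, 7 of the 8 genes were again called.

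Whether the change on culture differed with age was tested as an interaction, adult minus neonatal change. It passed for 4 of 8 Hedgehog genes, beside 68.6% of all genes. Shh rose more in adult cells, by 3.89 ± 1.28 (log2, adjusted p = 0.0101), but this call rests on a few counts in the direct groups and was lost without neoAC direct replicate 4 (3.64, adjusted p = 0.0560). Gli2 fell more in adult cells, by 1.80 (adjusted p = 1.24e-08). For Smo and Sufu the change on culture, not the level, was higher in adult than neonatal cells, by 0.66 ± 0.11 and 1.18 ± 0.13 (adjusted p = 1.21e-05 and 1.53e-08). The interaction did not pass for Gli1 (-0.42 ± 0.35), Hhip (0.15 ± 0.35), Ptch1 (0.07 ± 0.13) or Gli3 (0.02 ± 0.15), with 95% intervals of -1.10 to 0.26, -0.53 to 0.83, -0.18 to 0.32 and -0.28 to 0.33.

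Between ages, 6 of 8 genes passed in the directly isolated cells, 3 higher and 3 lower in neoAC direct, beside 71.4% of all genes. Hhip was 3.89-fold lower in neonatal than adult cells (log2 fold change -1.96 ± 0.23, adjusted p = 4.55e-08). Gli1 was lower by 0.62 and Gli2 by 0.36 on the log2 scale (adjusted p = 0.0148 and 0.0194); both calls were lost without neoAC direct replicate 4, the lowest library of its group for both genes (adjusted p = 0.0538 and 0.0891), and that of Gli2 also without AdAC direct replicate 2 (0.101). The call of Gli1 was also lost without a filter on low counts (0.0555). Smo (1.20 ± 0.08), Sufu (0.81 ± 0.09) and Gli3 (0.40 ± 0.11) were higher in neonatal cells. Ptch1 was at a log2 difference of 0.15, with an interval of -0.03 to 0.33, and Shh was near the floor on both sides. Oligodendrocyte markers, 321 to 394 CPM in neoAC direct and 25603 to 28424 CPM in AdAC direct, moved with age, as did markers of ependymal cells (132 to 194 CPM and 1156 to 1326 CPM), proliferation (235 to 389.8 CPM and 8.87 to 11.3 CPM) and neural stem cells (6331 to 8162 CPM and 621 to 638 CPM), and their part was not tested.

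In culture, 6 of 8 also passed between neoAC CellC and AdAC CellC, 3 in each direction, beside 63.8% of all genes. Shh was 17.0-fold lower in the neonatal cultures (adjusted p = 3.37e-11), Hhip 4.32-fold lower (-2.11 ± 0.28) and Sufu lower by 0.37 on the log2 scale. Gli2 was 2.7-fold higher (1.44 ± 0.14, adjusted p = 2.97e-09), Smo 1.46-fold and Gli3 1.30-fold. Ptch1 and Gli1 did not pass, at 0.08 ± 0.09 and -0.20 ± 0.27, with intervals of -0.10 to 0.26 and -0.72 to 0.32. Markers of other cells moved with this comparison too: oligodendrocyte markers were at 247 to 329.7 CPM in neoAC CellC and 4092 to 10432 CPM in AdAC CellC, ependymal markers at 1337 to 1698 CPM and 221 to 311 CPM, epithelial markers at 5.77 to 12.8 CPM and 146 to 356 CPM and astrocyte markers at 7164 to 8369.8 CPM and 903 to 1371 CPM. Their part was not tested. This comparison and those on culture and on age share groups, so their values are given side by side and not as separate evidence.

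The comparison of AGES with NSCs addressed the differentiation into AGES, in which BMP4, the coating and the listed growth factors changed together. Here 7 of 8 passed, 3 higher and 4 lower, beside 65.7% of all genes. Hhip was 84.8-fold lower in AGES (log2 fold change -6.41 ± 0.37, adjusted p = 1.12e-13) and Gli1 2.73-fold lower (-1.45 ± 0.44, adjusted p = 0.00544). Ptch1, although a target like these, was 1.70-fold higher (0.77 ± 0.09, adjusted p = 4.27e-08), and Gli2 1.64-fold higher (0.71 ± 0.14). Ptch1 and Hhip thus moved in opposite directions, each without overlap between the 4 NSC and 4 AGES libraries. Sufu was lower (-0.44 ± 0.09). Gli3 (-0.34 ± 0.11, adjusted p = 0.00825) and Smo (0.19 ± 0.08, adjusted p = 0.0401) changed little and with overlap; Gli3 did not pass in a fit of these 2 groups alone (adjusted p = 0.153) and Smo lost its call with library-size scaling (0.221) and when any of NSC replicates 2, 3 or 4 or AGES replicates 1 or 2 was left out (0.0531 to 0.144). Shh was at 7 summed counts in AGES and 10 in NSCs, and a difference was not detectable at this depth (ratio 0.719, 0.232 to 2.09, counting error only). Proliferation markers summed to 2812 to 2933 CPM in NSCs and 10.8 to 13.1 CPM in AGES. Markers of oligodendrocyte precursors summed to 1270 to 1475 CPM in NSCs and 213 to 316 CPM in AGES. The part of these markers was not tested.

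Against the cultured primary astrocytes, AGES had Shh at the counting floor and lower Gli1 and Hhip, but higher Ptch1. From AdAC CellC, 7 of 8 genes differed, beside 76.2% of all genes, and from neoAC CellC all 8, beside 74.6%. Shh was lower by 10.68 and 6.60 on the log2 scale, Gli1 9.11-fold and 7.92-fold lower, and Hhip 28.9-fold and 6.69-fold lower (largest adjusted p of these 6, 7.64e-06). Ptch1, Smo and Sufu were higher in AGES in both comparisons, Ptch1 by 0.81 ± 0.09 and 0.73 ± 0.09, Smo by 1.06 ± 0.08 and 0.52 ± 0.08 and Sufu by 0.34 ± 0.09 and 0.71 ± 0.09. Gli2 lay above AdAC CellC (0.51 ± 0.14) and below neoAC CellC (-0.93 ± 0.14). Gli3 was lower than in neoAC CellC (-0.52 ± 0.11) and did not differ from AdAC CellC in the test (-0.14 ± 0.11, interval -0.36 to 0.08). With library-size scaling, which moved the median of all genes by -0.22, Gli2 and Sufu lost their calls against AdAC CellC (adjusted p = 0.0651 and 0.239) and Gli3 gained one (-0.36, 0.00647). Gli3 also passed with at least 10 counts in every library (0.0475). Without AGES replicate 3, which held 5 of the 7 counts of Shh in AGES, its log2 differences were -11.93 and -7.84. In the comparison with AdAC CellC the 8 genes had a median of 0.10, where that over all genes tested was -0.23. In the comparison with neoAC CellC these medians were -0.73 and -0.07. Marker sums differed as well, given here for AGES, AdAC CellC and neoAC CellC in turn. Oligodendrocyte markers were at 22.4 to 42.6, 4092 to 10432 and 247 to 329.7 CPM, and epithelial markers at 0.174 to 0.329, 146 to 356 and 5.77 to 12.8 CPM. Proliferation markers were at 10.8 to 13.1, 622 to 768 and 639 to 842 CPM. Astrocyte markers were highest in AGES, as given above. The part of these markers was not tested.

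The remaining pairs of groups were tested to order the levels. AGES differed in 7 of 8 genes from AdAC direct and from neoAC direct, beside 80.4% and 73.8% of all genes, with Gli1 203-fold and 132-fold lower and Hhip 344-fold and 88.4-fold lower. NSCs differed in 7 of 8 from AdAC direct (86.2% of all genes) and in 5 of 8 from neoAC direct (80.0%), with Gli1 74.6-fold and 48.5-fold lower. From AdAC CellC and neoAC CellC, NSCs differed in 5 and 6 of 8 genes (77.3% and 80.6% of all genes). Hhip was higher in NSCs than in either, by 1.55 ± 0.24 and 3.66 ± 0.27. Across both age and culture, neoAC CellC differed from AdAC direct in 7 of 8 genes (74.0% of all genes) and neoAC direct from AdAC CellC in all 8, 7 of them higher in neoAC direct (70.7%).

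The wider list of ligands and the proteins that release them held 8 genes, with Shh. In AdAC CellC against AdAC direct 5 of them were higher and none lower, beside 78.0% of all genes called (median log2 fold change 1.06, against 0.00 over all genes). In neonatal culture 4 were higher and 2 lower (median 0.38), beside 65.7% of all genes. Desert hedgehog (Dhh), a second Hedgehog ligand, was 19.2, 25.7, 26.9 and 30.0 CPM in AdAC CellC and 0.187 ± 0.107 CPM in AdAC direct (7.02 ± 0.67 on the log2 scale, adjusted p = 1.79e-09). Its exons share 546 bases with Rhebl1 on the same strand, which lay at 2.73 and 6.76 CPM. Indian hedgehog (Ihh) had group means of 0.176 to 0.351 CPM and passed in none of the 7 comparisons of the study. Hhat, which attaches palmitate to the ligand, rose 7.12-fold and Disp1, which releases it, 2.26-fold, together with the secreted release factor Scube3 (1.92-fold). Scube3 was also the release gene that rose most in neonatal culture (3.39 ± 0.16). It was the only one of the 8 that passed in AGES against NSCs (5.85 ± 0.23), beside 65.7% of all genes. The genes that fell in neonatal culture were Scube2, from 2.24 ± 0.535 CPM to 0.538 ± 0.188 CPM (-2.05 ± 0.33), and Scube1, from 19.8 ± 4.05 CPM to 11.6 ± 1.49 CPM (-0.77 ± 0.24), whose call was lost with library-size scaling (adjusted p = 0.0544). In neonatal culture Dhh was 5.21, 0.419, 0.832 and 0.693 CPM; its call there (1.80 ± 0.61, adjusted p = 0.0132) was lost without neoAC CellC replicate 1 (0.36, adjusted p = 0.451) and without neoAC direct replicate 4 (adjusted p = 0.0506), and in a fit of these 2 groups alone (0.0723).

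Of the 4 coreceptors Lrp2, Cdon, Gas1 and Boc, 2 rose and none fell in adult culture, and 2 rose and 1 fell in neonatal culture. Of all genes tested, 78.0% and 65.7% were called in these comparisons. The endocytic receptor Lrp2, which binds Shh, was 546 ± 83.7 CPM in AdAC CellC against 35.7 ± 0.791 CPM in AdAC direct (3.94 ± 0.14, log2) and 315 ± 54.4 CPM in neoAC CellC against 9.49 ± 1.66 CPM in neoAC direct (5.05 ± 0.15). The coreceptor Cdon rose 5.34-fold and 2.30-fold. Gas1, another coreceptor, did not pass at either age (-0.10 ± 0.16 and -0.03 ± 0.16), and Boc fell in neonatal culture alone (-0.74 ± 0.13; adult -0.04 ± 0.13; interaction 0.70 ± 0.18, adjusted p = 0.00129). In AGES against NSCs, Gas1 fell 1.78-fold, Boc rose 2.68-fold and Lrp2 rose 2.33-fold.

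**Figure D4:**
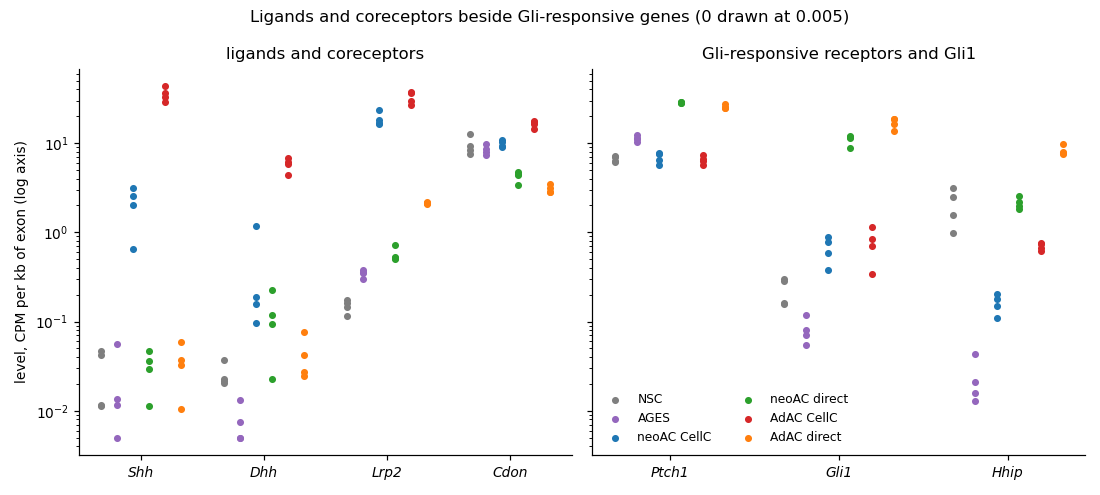
Level per kilobase of exon (y axis, log scale, CPM per kb; libraries at 0 drawn at 0.005) of Shh, Dhh, Lrp2 and Cdon (left) and of Ptch1, Gli1 and Hhip (right); each point is a library, coloured by group. The cultured adult libraries (red) are the highest for all 4 genes on the left, while the directly isolated libraries (green and orange) are the highest for Ptch1 and Gli1.

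Of 19 regulators of the Gli factors other than the 8 genes, 5 rose and 10 fell in adult culture, and 6 rose and 9 fell in neonatal culture, beside 78.0% and 65.7% of all genes called in either direction. By the rule for naming them, Stk36 and Ift88, a kinase and an intraflagellar transport protein needed for cilia, fell most in adult culture (-1.59 ± 0.09 and -1.56 ± 0.10, log2), while Ift88 rose in neonatal culture (1.13 ± 0.10). Stk36 was also higher in neoAC CellC than in AdAC CellC (1.44 ± 0.09), and Ift88 lower in neoAC direct than in AdAC direct (-1.99 ± 0.10). Ependymal markers moved the same way as Ift88, at 1156 to 1326 CPM in AdAC direct and 221 to 311 CPM in AdAC CellC, and at 132 to 194 CPM in neoAC direct and 1337 to 1698 CPM in neoAC CellC, and their part was not tested. In AGES against NSCs 9 rose and 3 fell, beside 65.7% of all genes called. The rises were led by Stk36 (1.69 ± 0.09) and Gpr161 (1.26 ± 0.10), a ciliary receptor that restrains the pathway. Gpr161 was also higher in AGES than in AdAC CellC (2.71 ± 0.10) and neoAC CellC (2.76 ± 0.10).

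Genes that respond to Gli factors in some tissues, 14 beyond Gli1, Ptch1 and Hhip, moved in both directions. In adult culture 7 rose and 4 fell (median 0.48), in neonatal culture 1 rose and 10 fell (median -0.79), where the medians over all genes were 0.00 and 0.04 and 78.0% and 65.7% of all genes were called. Cyclin D1 (Ccnd1), which drives entry into the cell cycle, rose at both ages (7.02 ± 0.45 and 1.96 ± 0.36), and Foxa2 rose in adult culture from 0.0519 to 2.85 CPM (log2 fold change 5.63, or 6.84 without AdAC direct replicate 4). Nkx2-1 and Nkx6-2, ventral patterning factors, were far higher in AdAC CellC than in AGES (-9.70 and -8.55, AGES minus AdAC CellC) and than in neoAC CellC (-3.43 and -4.46, neoAC CellC minus AdAC CellC). Nkx6-2 is also expressed by oligodendrocytes, and was at 174 CPM in AdAC direct. In neonatal culture the named genes that fell were Foxf2 (-2.57 ± 0.39) and Nkx2-2 (-1.63 ± 0.16), a factor of the oligodendrocyte lineage. Foxf2 was highest in neoAC direct replicate 2, the library with more endothelial markers, and its log2 fold change was -1.89 without it. Between the direct isolates, Ccnd2 (3.35 ± 0.19) and Ccnd1 (3.13 ± 0.39) were higher in neonatal cells. In AGES against NSCs, Ccnd1 fell by 4.62 and Olig2 by 3.81 on the log2 scale. Markers of proliferation and of oligodendrocyte precursors were also lower in AGES than in NSCs, as given above, and their part was not tested.

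As a description over the 24 libraries and 17171 genes, which share the group structure, the genes whose log2 CPM was most like that of Gli1 were Mfsd13a (r = 0.976), Cbs (r = 0.973) and Slc6a20a (r = 0.971). For Ptch1 they were Slc25a34 (r = 0.979), Fjx1 (r = 0.977) and Slc23a2 (r = 0.976), and for Hhip Syne2 (r = 0.975), Wscd1 (r = 0.969) and Gnptab (r = 0.965). By Spearman's rho none of these 9 was among the 3 most alike, and they ranked 4 to 211. Cbs, an enzyme of sulphur amino acid metabolism, was at 330.4 and 423 CPM in AdAC direct and neoAC direct and at most 33.8 CPM, as a group mean, in the cultured groups.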

How the data were processed

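RNA from 24 mouse samples (6 groups, 4 biological replicates each) was sequenced by the authors from stranded, paired-end mRNA libraries. The deposited values are raw read counts per gene: the authors aligned reads to GRCm38 with STAR (version 2.7.3a in the submitters' processing notes), keeping up to 20 alignments per read, and counted reads over Gencode exons with featureCounts. The strand setting of the counting is not given in the sources used here, so genes that overlap on opposite strands may share reads. NSC and AGES replicates were separate cultures of 1 line and primary replicates separate isolations.

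All 49671 genes were kept for library sizes. After filterByExpr, 19691 genes were tested in R 4.3.3 with edgeR 4.0.16 (TMM scaling, robust quasi-likelihood fit of 6 groups, 2-sided, Benjamini-Hochberg over all genes tested, threshold 0.05) in 15 pairs of groups and 1 interaction. Levels are TMM-scaled CPM, per kilobase of exon where genes are compared. The script was tested on simulated data. The SE of a log2 fold change was back-calculated as its absolute value over the square root of the test's F statistic. The 95% intervals of log2 fold changes used this SE and a normal quantile, and are approximate, above all near the counting floor. Intervals of count ratios are exact 95% intervals and cover counting error only. Symbols came from Gencode vM21, which matched 49326 identifiers. Likeness was the Pearson correlation of log2 CPM (prior count 2) over genes with at least 1 CPM in some group.

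The 8 genes and the other lists were chosen with earlier results of these data known, and the epithelial and choroid plexus lists after seeing the levels. Ligands and receptors were all open to naming. Of the regulators and Gli-responsive genes, the 2 highest and 2 lowest log2 fold changes were eligible in each comparison, among those that passed the test without overlap and reached 1 CPM. The alternatives were RLE or library-size scaling, no filter or at least 10 counts in every library, DESeq2 1.42.0, fits of only the compared groups, the replicate number as a block, each library left out, and Spearman correlation for likeness. A listed gene is not reported here.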

Additional observations from a re-analysis of the deposited data

Results flagged for a closer look

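In 8 of 120 pairs of a gene and a group of 4 libraries, 1 library lay far from the other 3 by Dixon's test, where chance gives about 1 in 20. Among the 8 Hedgehog genes these were Smo in neoAC direct replicate 4 (147 CPM, the lowest of its group) and Gli3 in AGES replicate 4 (25.6 CPM, the lowest). Among the other ligands and release genes they were Dhh in neoAC CellC replicate 1 (5.21 CPM) and in NSC replicate 1 (0.163 CPM), Disp1 in NSC replicate 3 (22.9 CPM) and Scube2 in AGES replicate 2 (0.116 CPM). Dhh in NSCs was at 5, 3, 3 and 3 counts and Scube2 in AGES at 1, 4, 1 and 1 counts, so both rest on a few reads near the counting floor. Among the coreceptors they were Gas1 in neoAC CellC replicate 1 (155 CPM) and Lrp2 in neoAC direct replicate 1 (12 CPM).

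The change on culture differed between adult and neonatal cells, by the interaction term of the fit, for 13 of 20 ligand, receptor and Gli genes, beside 68.6% of all genes tested. As adult minus neonatal change on the log2 scale, the 4 Hedgehog genes were Shh (3.89), Sufu (1.18), Smo (0.66) and Gli2 (-1.80). The ligand and release genes were Dhh (5.23), Hhat (2.83), Scube2 (2.07), Scube1 (0.88), Disp1 (0.42) and Scube3 (-2.44). The coreceptors were Cdon (1.22), Boc (0.70) and Lrp2 (-1.12). Without neoAC CellC replicate 1, the value of Dhh was 6.67. The call of Scube1 was lost without a filter, with library-size scaling, and without any one of AdAC CellC replicate 3, AdAC direct replicate 1, neoAC CellC replicate 4 or neoAC direct replicate 2 (adjusted p = 0.0504 to 0.0970, edgeR), and that of Disp1 under 5 alternatives, DESeq2 among them (0.0573 to 0.128). These alternatives for the interaction of genes other than the 8 were added after seeing the data.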

How the results depend on the processing

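The number of the 8 Hedgehog genes called moved by over 1.5 times under 1 alternative, at least 10 counts in every library. This filter removed Shh, Gli1 and Hhip before testing. Of the 5 genes left, 4 were called in the culture comparison at either age and 4 for AGES against NSC. The calls were 5 for AGES against neoAC CellC, 3 for NSC against AdAC CellC, 4 for neoAC CellC against AdAC direct and 5 for neoAC direct against AdAC CellC. With this filter 11977 genes were tested, and the number of all genes called also moved by over 1.5 times in 15 of 16 comparisons. Under the other alternatives, and in all 136 counts made without 1 library, the number of Hedgehog genes called stayed within 1.5 times. No called direction turned. Directions that turned belonged to differences that had not passed, and the cause was not tested. Ptch1 in NSC against AdAC CellC became -0.0056 (log2; RLE scaling and DESeq2), -0.10 (library size), -0.17 (at least 10 counts), -0.045 (fit of only those groups) and -0.043 (the same with the replicate block). The Ptch1 interaction became -0.023 (RLE scaling and DESeq2), -0.079 (library size) and -0.061 (at least 10 counts), and the Gli3 interaction -0.071 (RLE scaling and DESeq2), -0.13 (library size), -0.014 (no filter) and -0.11 (at least 10 counts). Smo in neonatal culture became -0.011 without a filter. With at least 10 counts, Gli3 in NSC against AdAC CellC became -0.0083 and Sufu in NSC against neoAC direct -0.052.

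Without single libraries, the Ptch1 interaction ranged from -0.0098 to 0.14 and the Gli3 interaction from -0.020 to 0.067. Smo in neonatal culture ranged from -0.026 to 0.090, and Gli1 between neoAC CellC and AdAC CellC from -0.43 to 0.065. For NSC minus AdAC CellC, Ptch1 ranged from -0.016 to 0.11, and for NSC minus neoAC CellC from -0.13 to 0.018. For NSC minus neoAC direct, Hhip ranged from -0.33 to 0.17 and Shh from -0.44 to 0.14. Shh ranged from -1.69 to 0.0026 for AGES minus NSC, from -0.62 to 0.11 for NSC minus AdAC direct and from -0.50 to 0.23 for neoAC direct minus AdAC direct, where all libraries held at most 6 counts.

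Libraries with the same replicate number deviated together weakly at most (r from -0.151 to 0.106, and 1 pair over 0.1 between neoAC direct and AdAC direct). The numbers were not used to pair samples, although low correlations over 4 libraries a group cannot exclude shared isolations or batches. With the replicate number as a block in the fit of 6 groups, 7 of 8 genes were called in culture at either age, and all 128 results on the 8 genes kept their direction and call. In blocked fits of only the compared groups, 3 of 122 results on these genes gained a call, 2 lost one and 1 turned: Sufu in adult culture (adjusted p = 0.0315), Ptch1 between the direct isolates (0.0137) and Gli3 in NSC against neoAC CellC (0.0189) gained it, Gli3 in AGES against NSC (0.215) and Smo in NSC against neoAC CellC (0.0503) lost it, and Ptch1 in NSC against AdAC CellC turned, as given above. Library-size scaling moved the median of all genes by up to -0.30 (AGES against neoAC CellC), and 11 of 48 group levels moved by more than the spread between replicates.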

Other observations

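Within the 4 neoAC CellC libraries the order of Shh (9.05, 5.71, 1.83 and 7.26 CPM in replicates 1 to 4) was also that of Gli1 (4.40, 2.96, 1.91 and 3.88 CPM). Ptch1 in these libraries was 107, 92.3, 79.7 and 109 CPM, highest in replicate 4. In AdAC CellC the library with the highest Shh (124 CPM) had the lowest Gli1 (1.72 CPM) and the lowest Ptch1 (80.3 CPM). That library, replicate 1, also had the lowest astrocyte and oligodendrocyte marker sums of its group (903 and 4092 CPM), and their part was not tested. These orders were noticed after the values were seen, and 4 libraries a group give no test.

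In AGES and NSCs, both with Shh near the counting floor, Scube3, a secreted protein that helps release the ligand, was at 20.6 ± 6.84 CPM and 0.351 ± 0.0677 CPM (SD, n = 4). Neonatal direct isolates held 8.34 CPM of Scube3, against 41.9 CPM in adult ones, and the cultured cells 87.1 CPM (neonatal) and 80.6 CPM (adult).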
